A study of Mus musculus with 8 samples.

Results

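Expression of 10 genes of AP-1 and its close partners was examined in the interfollicular epidermis of mice, which is the part of the epidermis outside the follicles: Fos, Fosb, Fosl1, Fosl2, Jun, Junb, Jund, Atf3, Egr1 and Maff. All probe sets that the platform annotation pairs with any of these genes were taken, each on its own, which gave 14 of the 45037 probe sets tested and 10 of the 17097 genes that have a probe set. The rule rests on gene names. Fosl1, Fosl2, Jun and Jund had 2 probe sets each and the other 6 genes had 1. No probe set annotated to several genes held a member.

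AP-1 is a dimer of basic leucine zipper proteins, in which a Jun protein pairs with another Jun or with a Fos protein and binds DNA at the element TGACTCA. Fos, Jun, Junb, Egr1 and Atf3 are immediate early genes: growth factors, stress and phorbol esters such as TPA switch them on within minutes through protein kinase C and MAP kinases, while Fosl1 and Fosl2 respond later and for longer. In mouse skin, AP-1 activity is part of the response to TPA and of papilloma formation. Egr1 encodes a zinc finger protein and Maff a small Maf protein without an activation domain, so neither is a subunit of AP-1 in the strict sense.

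The 8 samples were epidermal cells, 4 from mice labelled G9a cKO and 4 from mice labelled G9a WT, aged 15 weeks. Ehmt2 encodes G9a, an enzyme that methylates histone H3 and is associated with gene repression, and cKO is taken here as conditional knockout. The labels do not name the promoter that drives the deletion or the part of the gene that was removed. Both groups carried the same treatment, the carcinogen DMBA (0.25 mg/ml) and the tumour promoter TPA (0.02 mg/ml), 200 µl of each on shaved back skin, weekly for 6 weeks from 8 weeks of age, and the labels call the tissue pre-neoplastic. No untreated skin was analysed here, and the labels do not give the time between the last TPA dose and sampling, so the response to TPA itself could not be measured. Values are log2 expression from 1-colour arrays, 1 array per sample, and arrays of 4 per group limit the precision.

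The knockout was seen at probe set 1460692_PM_at of Ehmt2, where cKO minus WT was -2.88 (SE 0.19, limma adjusted p = 0.000244), while 1426888_PM_at stood at 0.01. The keratinocyte markers Krt5, Krt14, Krt1 and Krt10 read between 12.14 and 12.90 in every array. Array medians lay between 5.72 and 5.80, with cKO 1 the highest. On the first principal component of all probe sets, which held 36.9% of the variance, WT 4 (-23.5) lay beside cKO 3 and cKO 4 (-18.0 and -19.2), and cKO 2 (10.7) lay beside WT 1 to WT 3 (11.4 to 20.6). The second component, with 23.0% of the variance, separated the groups, with cKO at 7.35 to 19.96 and WT at -21.2 to -2.58, and cKO 2 and WT 4 were the ends of their groups. Results are therefore also given without cKO 2 and WT 4.

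Several of these genes are known to be controlled by AP-1 or related factors at their own promoters, and promoter sequences are shown for this reason. RefSeq promoter windows (GRCm38.p6) were found for 8 of the 10 genes, in 10 windows, since Maff had 3 annotated starts. The 250 bases before each start were searched on both strands for the AP-1 element TGACTCA, the cyclic AMP element TGACGTCA, its core TGACG, the Jun promoter elements TGACATCA and TTACCTCA, and the EGR element GCGTGGGCG. TGACG is part of TGACGTCA, so these searches overlap. Capitals mark the matches. Fos and Jun are printed over the whole 250 bases, and the others with up to 15 bases on each side of a match.
Fos, chr12:85473640-85473889, plus strand: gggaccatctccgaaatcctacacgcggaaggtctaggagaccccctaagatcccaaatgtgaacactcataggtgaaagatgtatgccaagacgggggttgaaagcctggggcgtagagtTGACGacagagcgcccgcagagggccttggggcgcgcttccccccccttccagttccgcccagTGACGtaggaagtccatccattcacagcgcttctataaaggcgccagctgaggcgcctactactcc
Jun, chr4:95052223-95052472, minus strand: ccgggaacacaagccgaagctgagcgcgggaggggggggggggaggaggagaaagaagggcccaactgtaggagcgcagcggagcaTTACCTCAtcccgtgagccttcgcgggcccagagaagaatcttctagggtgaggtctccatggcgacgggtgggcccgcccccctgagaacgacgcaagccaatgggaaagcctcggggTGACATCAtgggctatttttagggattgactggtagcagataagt
Fosb, chr7:19310086-19310120, minus strand: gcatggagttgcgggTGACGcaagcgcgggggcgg
Junb, chr8:84978835-84978869, minus strand: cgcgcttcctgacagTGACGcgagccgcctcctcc
Atf3, chr1:191183334-191183355, minus strand: ctattaatagcattaCGTCAgc
Maff, cyclic AMP element, chr15:79347476-79347513, plus strand: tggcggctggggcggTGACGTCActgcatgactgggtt
Maff, EGR element, chr15:79347417-79347455, plus strand: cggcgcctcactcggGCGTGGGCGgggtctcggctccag
Maff, Jun-type element, chr15:79348342-79348379, plus strand: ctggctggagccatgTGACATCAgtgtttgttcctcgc

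The core TGACG stood in 6 of the 10 windows of members, 66 and 129 bases before the start of Fos, and in 17.8% of all 32851 windows of the table. Fosb, Junb, Atf3 and 2 of the 3 windows of Maff also held it; in Atf3 it reads CGTCA, on the opposite strand. TGACGTCA stood in 1 window of a member, that of Maff, and in 1.55% of all windows. TGACATCA stood in Jun, 45 bases before the start, and in Maff, and in 2.93% of all windows. TTACCTCA stood in Jun, 164 bases before the start, and in 0.728% of all windows. The EGR element stood in 1 window of Maff and in 0.536% of all windows. TGACTCA stood in none of the 10 windows and in 4.46% of all windows. These are matches of letters and not measured binding sites.

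No difference between G9a cKO and G9a WT epidermis was detected at any AP-1 member. Of the 14 probe sets 0 passed (limma, Benjamini-Hochberg adjusted p under 0.05 over all probe sets), against 0.466% of all probe sets (0.393% higher and 0.0733% lower in cKO), 0 had an unadjusted limma p under 0.05, against 7.98%, and 0 had groups that did not overlap, against 4.89%. The log2 differences of the members, cKO minus WT, ran from -0.12 to 0.07 with a median of -0.02, beside a median of 0.01 over all probe sets, and 7 were above and 7 below 0. Limma adjusted p ran from 0.842 to 0.996. With array weights 0 of 14 passed, against 1.68% of all probe sets (1.3% higher and 0.386% lower), and 0 had an unadjusted limma p under 0.05, against 17.7%. With 1 probe set per gene 0 of the 10 genes passed, against 0.977% of all genes (0.79% higher and 0.187% lower, and 9.33% with an unadjusted limma p under 0.05). The exact permutation test over the 70 arrangements of 4 against 4 arrays gave two-sided p from 0.257 to 0.914, where 0.0286 is the smallest it can give. The 95% confidence intervals over 8 arrays of all 14 lay within 0.5 of 0 on the log2 scale, 7 within 0.2, and the bound farthest from 0, for Fosl1, corresponds to a 1.40-fold lower level in cKO. These intervals hold for the array's scale, on which high values may be compressed, and for all 8 arrays; without cKO 2 and WT 4 that of Fosl1 reached -0.55.

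**Figure D1:**
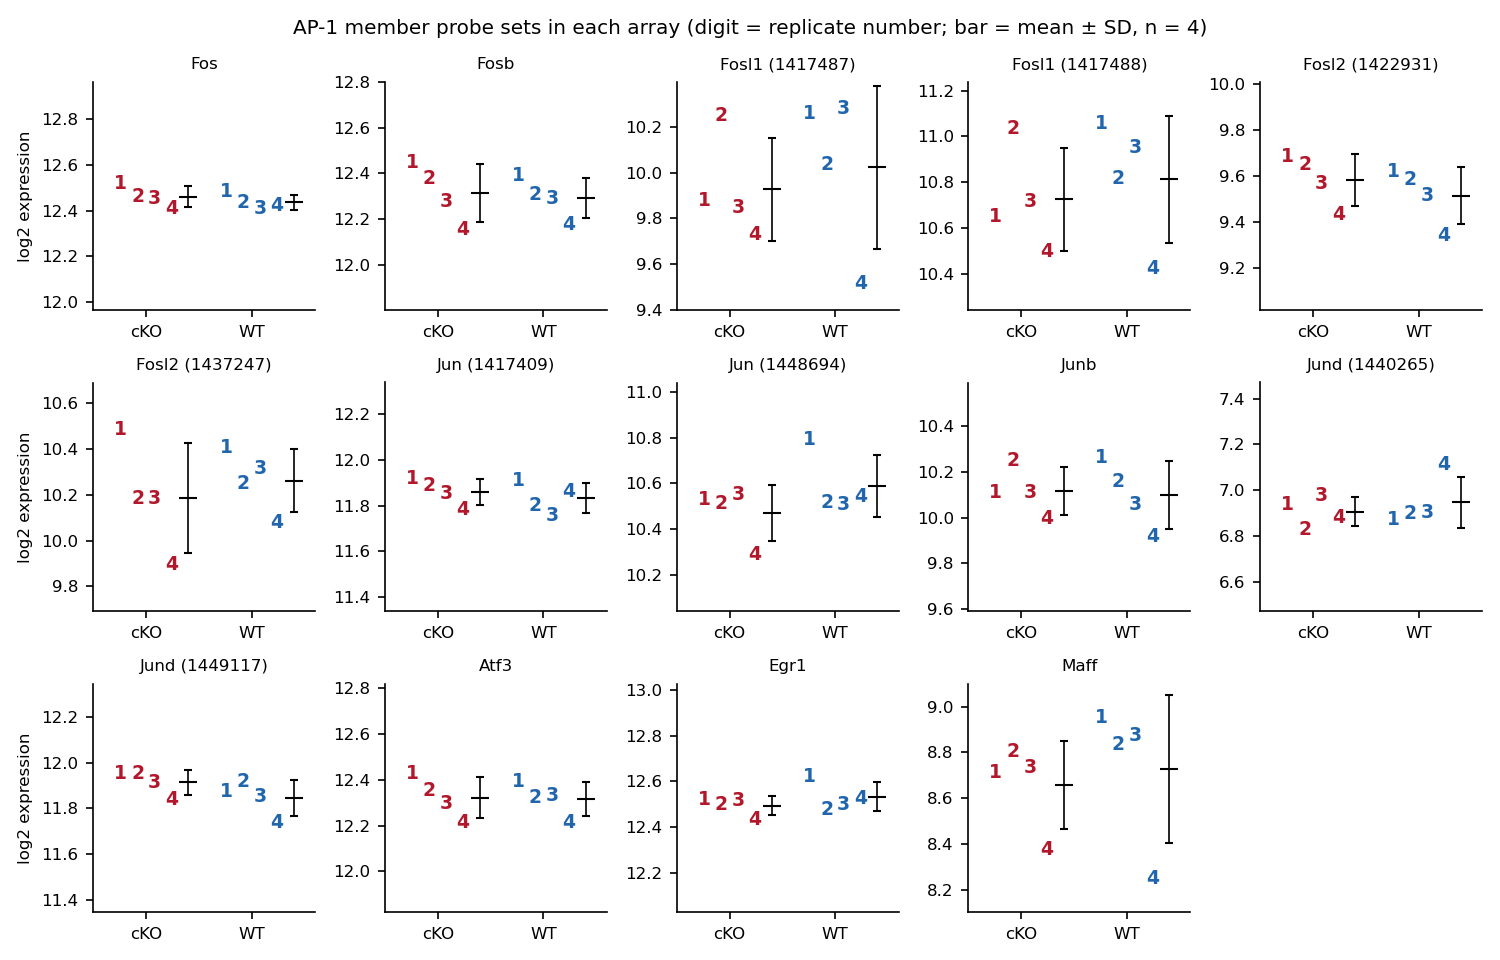
Log2 expression of the 14 member probe sets (y axis, each panel spanning 1 log2 unit) in cKO (red) and WT (blue), with the replicate number of each array as the symbol and the mean ± SD of 4 arrays as a bar. The groups overlap in all 14 panels, and WT 4 and cKO 4 are low for Fosl1 and Maff.

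Among Fos proteins, the partners that cannot pair with themselves, Fos itself was nearly level across the 8 arrays. Fos read 12.52, 12.46, 12.45 and 12.41 in cKO 1 to 4 and 12.48, 12.43, 12.41 and 12.42 in WT 1 to 4. The 2 groups interleave, with the highest array in cKO and the lowest in WT. The log2 difference of Fos was 0.02 (95% interval -0.07 to 0.12, limma adjusted p = 0.973). Fosb, a close relative of Fos that is also induced at once, read 12.45, 12.38, 12.28 and 12.16 in cKO and 12.39, 12.31, 12.29 and 12.18 in WT. Array 4 was the lowest of each group for Fosb and array 1 the highest. The log2 difference of Fosb was 0.02 (95% interval -0.14 to 0.18, limma adjusted p = 0.989), and its sign turned without cKO 1 or without WT 4.

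Fosl1, which encodes FRA1, a Fos protein without an activation domain that is known for its part in tumour cell invasion, varied most among the Fos genes. Its probe set 1417487_PM_at read 9.88, 10.25, 9.85 and 9.73 in cKO and 10.26, 10.04, 10.28 and 9.52 in WT. WT 4 was the lowest of all 8 arrays, and cKO 2 stood with WT 1 and WT 3 above the other cKO arrays. The other probe set, 1417488_PM_at, read 10.65, 11.03, 10.72 and 10.50 in cKO and 11.06, 10.82, 10.95 and 10.42 in WT, the same arrays being high and low. The log2 differences were -0.10 (95% interval -0.49 to 0.30) and -0.09 (-0.42 to 0.25), with limma adjusted p of 0.976 and 0.973. Single arrays moved both values by over 1.5 times: 1417487_PM_at of Fosl1 stood at -0.26 without WT 4, -0.20 without cKO 2 and -0.00994 without WT 3, and 1417488_PM_at at -0.22 without WT 4, -0.19 without cKO 2 and -0.00450 without WT 1. Fosl2, which encodes FRA2, had differences of opposite sign at its 2 probe sets, 0.07 at 1422931_PM_at and -0.08 at 1437247_PM_at (limma adjusted p = 0.944 and 0.969), and the latter turned to 0.02 without cKO 4. At 1437247_PM_at Fosl2 ranged from 9.90 in cKO 4 to 10.48 in cKO 1, and all WT arrays, at 10.08 to 10.41, lay between these values.

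Jun proteins can pair with each other or with a Fos protein. Jun, the strongest activator of the family, read 11.92, 11.89, 11.85 and 11.78 in cKO and 11.91, 11.80, 11.76 and 11.86 in WT at probe set 1417409_PM_at. These values span 0.16 on the log2 scale and show no separation of the groups (difference 0.03, 95% interval -0.09 to 0.14, limma adjusted p = 0.979). At 1448694_PM_at Jun read 10.53, 10.51, 10.55 and 10.29 in cKO and 10.79, 10.51, 10.51 and 10.54 in WT. Here cKO 4 stood below and WT 1 above 6 arrays that lay within 10.51 to 10.55, and the difference was -0.12 (95% interval -0.30 to 0.07, limma adjusted p = 0.842), the largest of the 14 in size over 8 arrays. It was -0.0507 without WT 1 and -0.0574 without cKO 4, and without WT 4 the differences of Fosl1 (-0.26) and Maff (-0.23) were larger.

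Junb, which can oppose Jun and restrains growth of keratinocytes, read 10.11, 10.25, 10.11 and 10.00 in cKO and 10.26, 10.16, 10.06 and 9.92 in WT. Array 4 was again the lowest of each group, and the difference was 0.02 (95% interval -0.17 to 0.20, limma adjusted p = 0.995). Its sign turned without cKO 2 or without WT 4. Jund, the Jun gene that is expressed without stimulation, read 11.84 to 11.95 in cKO and 11.74 to 11.92 in WT at 1449117_PM_at, a difference of 0.07 (95% interval -0.05 to 0.19, limma adjusted p = 0.872). At 1440265_PM_at Jund read 6.83 to 6.98 in cKO and 6.87 to 7.11 in WT, with WT 4 at the top, and a difference of -0.04 (95% interval -0.18 to 0.10, limma adjusted p = 0.971). The sign of the latter turned without WT 4.

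Atf3, a stress-induced relative of Fos that often represses its targets, read 12.43, 12.35, 12.30 and 12.21 in cKO and 12.39, 12.32, 12.33 and 12.22 in WT. Array 4 was the lowest of each group for Atf3, and the ranges of the groups nearly coincide. The difference was 0.01 (95% interval -0.13 to 0.14, limma adjusted p = 0.996); its sign turned under median centring, cyclic loess and when cKO 1, cKO 2 or WT 4 was left out. Egr1, the zinc finger factor that shares signals with Fos, read 12.52, 12.50, 12.52 and 12.43 in cKO and 12.62, 12.48, 12.50 and 12.53 in WT, a difference of -0.04 (95% interval -0.14 to 0.07, limma adjusted p = 0.950). Maff, whose protein competes for Maf elements, read 8.71, 8.81, 8.74 and 8.38 in cKO and 8.95, 8.83, 8.88 and 8.25 in WT. For Maff, WT 4 was the lowest and cKO 4 the next, while the other 6 arrays kept within 8.71 to 8.95. The difference of Maff was -0.07 (95% interval -0.42 to 0.28, limma adjusted p = 0.983), and its sign turned without cKO 4 or without WT 1.

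**Figure D2:**
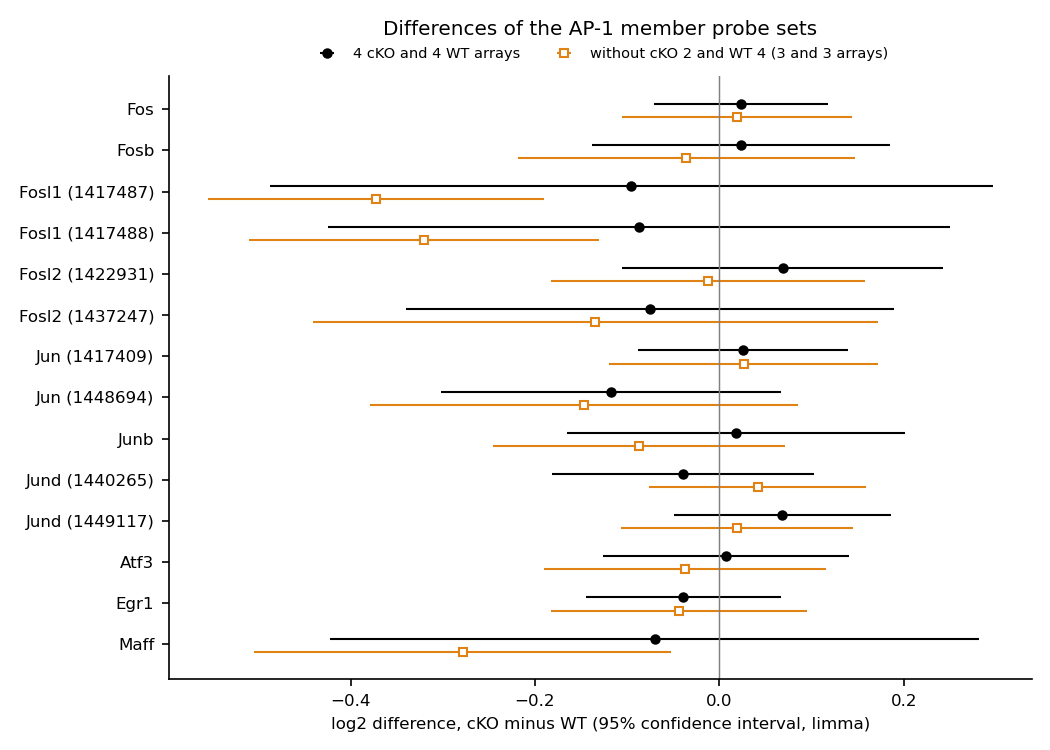
Log2 difference, cKO minus WT, of the 14 member probe sets with 95% confidence intervals from limma (x axis), over all 8 arrays (filled circles) and without cKO 2 and WT 4 (open squares). All intervals over 8 arrays include 0; without those arrays the intervals of Fosl1 at both probe sets and of Maff lie below 0.

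Without cKO 2 and WT 4, the members still did not pass (0 of 14, against 1.46% of all probe sets), but Fosl1 and Maff moved. Fosl1 then stood at -0.37 (95% interval -0.55 to -0.19, limma adjusted p = 0.0709) and -0.32 (-0.51 to -0.13, adjusted p = 0.117), and Maff at -0.28 (-0.50 to -0.05, adjusted p = 0.227). For these 3 probe sets all 3 cKO arrays lay below all 3 WT arrays. Groups that did not overlap, in either direction, were seen at 3 of 14 members and at 19.6% of all probe sets with these 6 arrays. The share of all probe sets with cKO below WT was not computed. Of the 14 members, 3 had an unadjusted limma p under 0.05, against 15.4% of all probe sets. These 2 arrays were set aside because of their place among all probe sets in earlier results of these data, so these values describe how far 2 arrays carry the result. Fos, Jun at 1417409_PM_at and Egr1 then stood at 0.02, 0.03 and -0.04, as over 8 arrays.

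The members differed in how much they varied between arrays of a group, and this spread depends on the level. The median residual SD of all probe sets was 0.125 at mean log2 values of 7 to 8 and 0.0345 at 12 to 13, where 215 probe sets lie. Fos, Fosb, Atf3 and Egr1 had means above 12, near the top of the table, whose highest value was 13.0; between 53 (Egr1) and 102 (Fosb) probe sets had a higher mean. This is a place on the array's scale and no ranking of transcript amounts. Values near the upper end of the scale can be compressed, and whether that is so for these probe sets was not tested. Within this range Fos had a residual SD of 0.0393, at the 57.5th percentile of probe sets within 0.5 of its mean, while Fosb, at 0.109, was at the 98.0th percentile and Atf3, at 0.0828, at the 94.5th.

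By residual SD, without regard to level, Fosl1 and Maff varied most, while against probe sets of similar mean Fosb stood highest. The residual SD was 0.297 and 0.254 at the probe sets of Fosl1 (97.6th and 97.1th percentile of probe sets of similar mean), 0.265 for Maff (94.1th) and 0.195 for Fosl2 at 1437247_PM_at (92.2th). Of the 14 probe sets 3, both of Fosl1 and that of Maff, were in the upper 10% of residual SD over all probe sets. Jun, Jund, Junb, Egr1 and the other probe set of Fosl2 lay between the 25.9th and the 81.9th percentile for their mean.

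**Figure D3:**
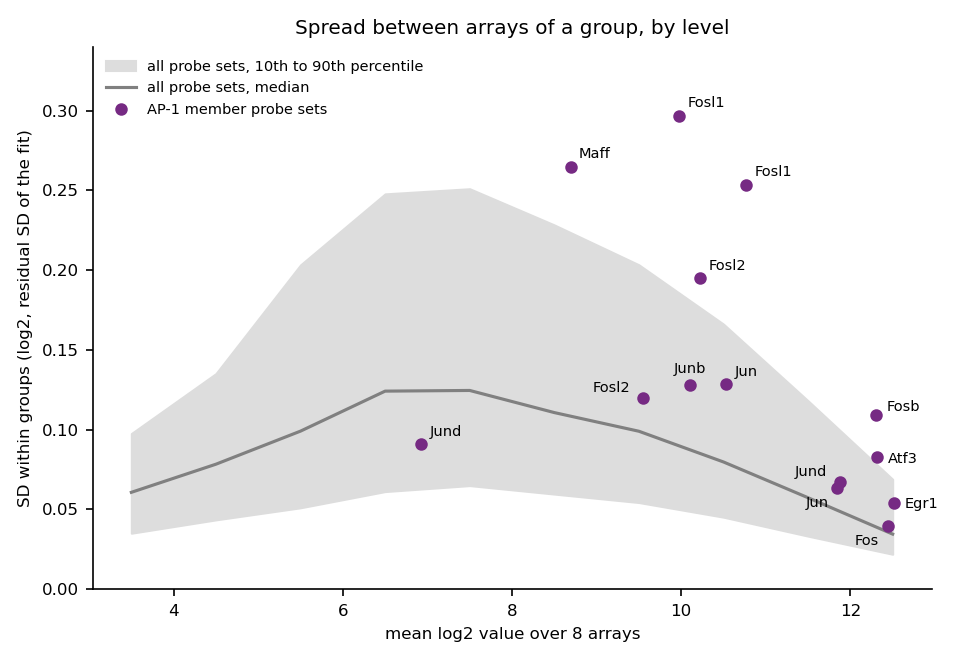
Residual SD within groups (y axis, log2) against the mean over 8 arrays (x axis, log2) for the 14 member probe sets (points), with the median (line) and the 10th to 90th percentile (grey) of all probe sets in steps of 1 log2 unit. Fosl1, Maff, Fosb, Atf3 and the brighter probe set of Fosl2 lie above the 90th percentile of their step, and Fos lies near the line.

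The low arrays were shared between members. Within cKO, array 4 was the lowest at 13 of the 14 probe sets, and within WT, array 4 was the lowest at 9. WT 1 was the highest WT array at 11 probe sets and cKO 1 the highest cKO array at 8. The mean over the 14 probe sets was 10.57 in cKO 4 and 10.58 in WT 4, and between 10.71 and 10.85 in the other 6 arrays. The mean over all probe sets was 6.23 in cKO 4 and 6.24 in WT 4, against 6.23 to 6.30 in the others. The 71 probe sets of other immediate early genes showed the same arrays low, with means of 9.16 in cKO 4 and 9.08 in WT 4 and 9.31 to 9.45 elsewhere. Array 4 was also lowest in both groups by list mean for other basic leucine zipper genes (7.06 and 7.15) and upstream genes (7.51 and 7.49). The same held for AP-1 targets (7.18 and 7.13) and for neutrophil and melanocyte markers. It did not hold for heat shock genes or for markers of keratinocytes, hair follicles, sebaceous glands, fibroblasts, endothelium, T cells, muscle and fat. The share of all probe sets with array 4 lowest was not computed.

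Heat shock genes did not share 1 order over these arrays. Bag3, a partner of HSP70, was low in the same arrays, with 7.34 in cKO 4 and 7.53 in WT 4. It was nearly as low in cKO 3, at 7.56, and read 7.98 to 8.09 elsewhere. Hspa1b, an inducible HSP70 gene, was highest in cKO 4 and WT 4 at 1427126_PM_at, with 8.38 and 8.89 against 7.17 to 8.13 in the other 6. At 1427127_PM_x_at Hspa1b also had its highest values there, 8.47 and 9.16, against 7.57 to 8.45. At the third, 1452318_PM_a_at, Hspa1b read 11.84 in WT 4, its highest value, but 11.67 in cKO 4 against 11.56 to 11.73 in the others. Hspa1b has a near-identical neighbour, Hspa1a, whose transcripts its probes could also bind. Markers of Langerhans cells and macrophages were lowest in these arrays too, with list means of 6.28 in cKO 4 and 6.07 in WT 4 against 6.41 to 6.61. The part of RNA handling or cell make-up in the members' values was not tested.

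**Figure D4:**
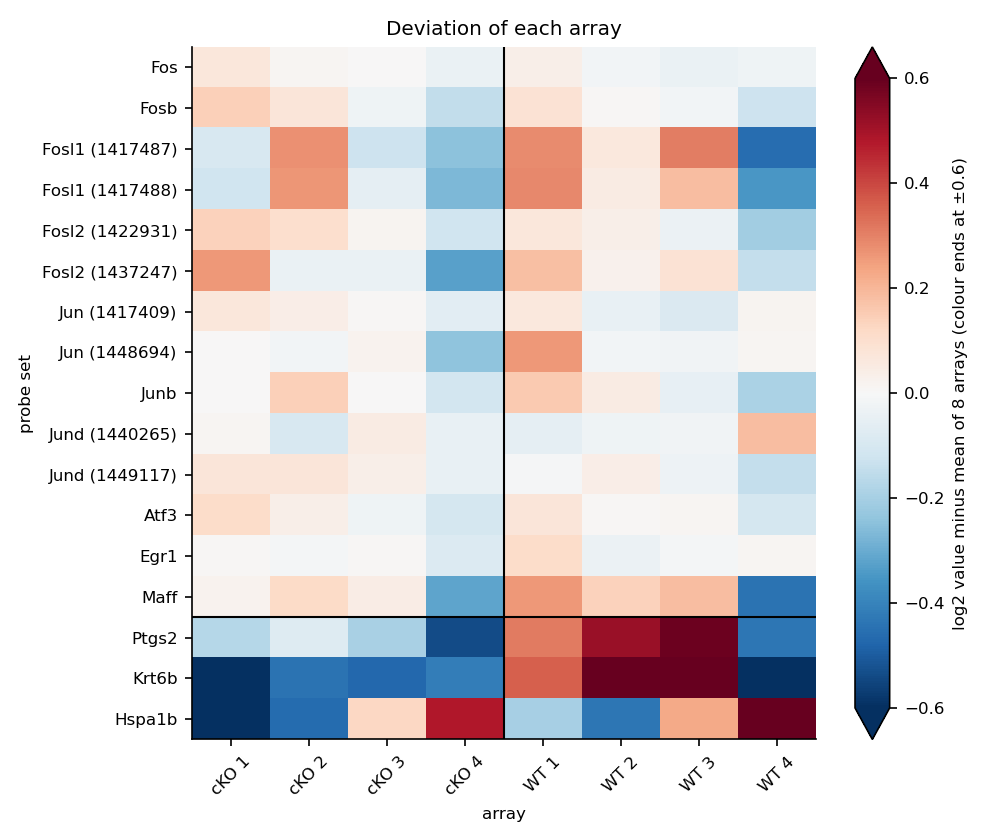
Log2 value of each array minus the mean of the 8 arrays (colour, ending at ±0.6) for the 14 member probe sets and, below the line, for Ptgs2, Krt6b and Hspa1b (each at its probe set with the widest range). Fosl1 and Maff are low in WT 4 and cKO 4, this probe set of Hspa1b is high there, and Ptgs2 and Krt6b are high in WT 1, WT 2 and WT 3.

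The values of Fos were compared with those of each other member across the 8 arrays, each at its probe set with the highest mean, in 9 relations. Fos followed Jun (Pearson r = 0.86, exact permutation p = 0.00536, adjusted p = 0.0265; Spearman rho = 0.93, exact p = 0.00223, adjusted p = 0.0201). It also followed Fosb (r = 0.86, exact permutation p = 0.00588, adjusted p = 0.0265; rho = 0.81, exact p = 0.0218, adjusted p = 0.0980) and Atf3 (r = 0.81, exact permutation p = 0.0148, adjusted p = 0.0443; rho = 0.74, exact p = 0.0458, adjusted p = 0.103). These values are not particular to AP-1 members: an r with Fos at least as high as that of Jun was found at 283 of the other 45036 probe sets (0.628%), as that of Fosb at 325 (0.722%) and as that of Atf3 at 698 (1.55%). The other 6 relations did not pass, with r from 0.25 for Fosl1 to 0.73 for Fosl2 (adjusted exact permutation p = 0.542 and 0.0887). Without cKO 1 and WT 1, the arrays farthest from the median of Fos, r was 0.79 for Jun, 0.69 for Fosb and 0.51 for Atf3 over 6 arrays (exact permutation p = 0.0861, 0.128 and 0.282), so that these relations rest in part on those 2 arrays. With each member at its probe set of largest SD, 0 of the 9 relations passed: Jun, at its other probe set, stood at r = 0.52 (adjusted exact permutation p = 0.259), and Fosb and Atf3, with r as before, at adjusted p = 0.0529 and 0.0665. An alternative with the array medians subtracted was added after the data were seen because cKO 1 had the highest median. Pearson r was then 0.86 for Jun, 0.84 for Fosb, 0.82 for Junb and 0.79 for Atf3 (adjusted exact permutation p = 0.0378, 0.0378, 0.0378 and 0.0421). By Spearman rho these relations did not pass (adjusted exact permutation p = 0.0964, 0.126, 0.130 and 0.130). Without cKO 2 and WT 1, here the arrays farthest from the median of Fos, Pearson r was 0.55, 0.75, 0.44 and 0.61 over 6 arrays (exact permutation p = 0.257, 0.103, 0.386 and 0.208).

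Among named probe sets, the 5 whose pattern over the 8 arrays was nearest to Maff were those of Yy1, Epha2, 1500015A07Rik, Sox9 and Dusp7, with root mean square differences of 0.0599 to 0.0693 after each mean was subtracted. Maff was taken because its SD over the 8 arrays was the largest when each member is represented by its probe set with the highest mean; 1417487_PM_at of Fosl1 varied more. Epha2, an ephrin receptor of epithelia, read 9.36 in cKO 4 and 9.26 in WT 4 and 9.59 to 9.86 in the other arrays. Dusp7, a phosphatase of MAP kinases, read 10.50 and 10.40 in these arrays and 10.69 to 10.98 in the others. The 5 nearest to Fos were Epha3, Baalc, Tctex1d1, Xrcc6 and Cyhr1, at 0.0101 to 0.0150, with r of 0.91 to 0.96. Their residual SDs of 0.0328 to 0.0395 were close to that of Fos. Over the 8 arrays Epha3 read 3.49 to 3.62, Tctex1d1 3.90 to 4.02 and Baalc 4.48 to 4.59. These levels were not shown to lie above background. Xrcc6 read 5.25 to 5.34 and Cyhr1 8.81 to 8.93. Whether any of these genes shares regulation with Fos was not tested.

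Genes around AP-1 were taken from 5 lists with 315 probe sets. None passed in the fit over 8 arrays by limma, and 19 of the 315 had an unadjusted p under 0.05, where 0.466% and 7.98% of all probe sets did so. By list these were 2 of 71 for other immediate early genes, 4 of 60 for other basic leucine zipper genes, 8 of 90 for kinases and factors upstream of AP-1, 5 of 72 for AP-1 targets in skin and 0 of 22 for heat shock genes. The list medians were 0.00, -0.04, 0.00, -0.03 and -0.04 in this order, beside 0.01 over all probe sets.

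Upstream of AP-1, Prkcb, which encodes protein kinase C beta, a receptor of TPA, came nearest to the threshold. At 1460419_PM_a_at Prkcb read 4.59, 4.48, 4.54 and 4.35 in cKO and 4.11, 4.18, 4.10 and 4.20 in WT. All cKO arrays lay above all WT arrays, at levels not shown to lie above background. The difference of Prkcb was 0.34 (SE 0.06, limma adjusted p = 0.0534). It passed under median centring, cyclic loess, a prior with trend, array weights and without cKO 4 (adjusted p from 0.00872 to 0.0353). It did not pass with a replicate block (0.173), a robust prior (0.0551), without cKO 2 and WT 4 (0.0613) or without any of the other 7 arrays alone (limma adjusted p from 0.0531 to 0.212). Its other probe set stood at 0.08. The MAP kinase genes Mapk12 and Mapk8 stood at 0.24 (SE 0.07, limma adjusted p = 0.307) and 0.25 (SE 0.16, adjusted p = 0.803), with the other 3 probe sets of Mapk8 at 0.02 to 0.09. Elk3, an ETS factor of serum response elements, stood at 0.27 (SE 0.09, limma adjusted p = 0.440) and at 0.19 and 0.11 at its other probe sets.

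Among other immediate early genes, Ccn2, the gene of connective tissue growth factor, stood at 0.45 (SE 0.19, limma adjusted p = 0.580), Socs3, an inhibitor of cytokine signalling, at -0.31 (SE 0.23, adjusted p = 0.872), Tiparp at -0.26 (SE 0.15, adjusted p = 0.782) and the nuclear receptor gene Nr4a3 at 0.23 (SE 0.30, adjusted p = 0.958). The other probe sets of Tiparp stood at -0.13 and -0.15 and those of Nr4a3 at 0.13 and 0.20. Nr4a3 at 1438796_PM_at read 8.00 in cKO 4 and 7.48 in WT 4 and 8.52 to 8.90 in the other 6 arrays, so that the low arrays of Maff were low here too. Among other basic leucine zipper genes, Bach1, a partner of small Maf proteins, stood at -0.20 (SE 0.12, limma adjusted p = 0.814), Atf5 at -0.19 (SE 0.06, adjusted p = 0.396), Creb5 at -0.17 (adjusted p = 0.891) and Atf1 at -0.17 (adjusted p = 0.706). Bach1 stood at -0.11 at its other probe set, and the other 4 of Creb5 ran from -0.07 to 0.11.

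Among known targets of AP-1 in skin the genes with the largest differences are described, and the 72 probe sets as a list had the median of -0.03 given above. Krt6b, a keratin of stressed and growing epidermis, read 9.14, 9.40, 9.37 and 9.43 in cKO and 10.20, 11.02, 11.09 and 9.09 in WT. WT 4 lay below all cKO arrays, and the other 3 WT arrays lay above them. The difference of Krt6b was -1.01 (SE 0.38, limma adjusted p = 0.514). Ptgs2, the gene of the TPA-inducible cyclooxygenase COX-2, read 7.47, 7.57, 7.45 and 7.11 in cKO and 7.96, 8.16, 8.23 and 7.21 in WT at 1417262_PM_at, with WT 4 inside the range of cKO, the other WT arrays above it and a difference of -0.49 (SE 0.21, limma adjusted p = 0.595). Its other probe set stood at -0.23. Mmp3, a matrix metalloproteinase, stood at -0.49 (SE 0.22, limma adjusted p = 0.645) and Sprr2h, a cornified envelope gene whose probe set may also bind its relatives, at -0.36 (SE 0.22, adjusted p = 0.793).

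**Figure D5:**
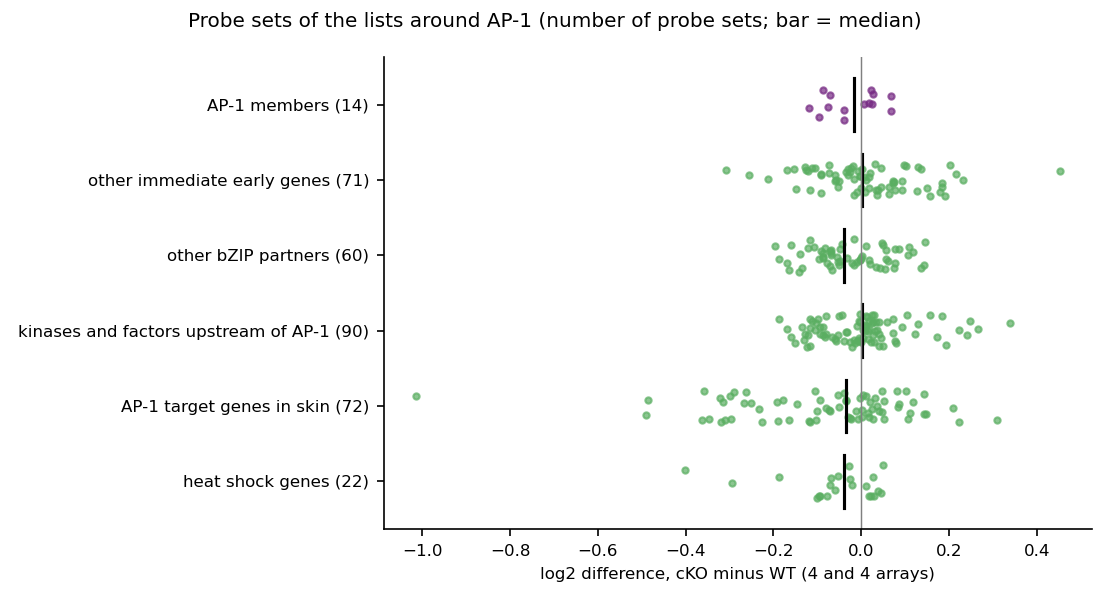
Log2 difference, cKO minus WT over 4 and 4 arrays (x axis), of each probe set (points) of the AP-1 members and of the 5 lists around them, with the number of probe sets in parentheses and the median as a bar. The members lie between -0.12 and 0.07, and Krt6b is the point at -1.01.

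Without cKO 2 and WT 4, 6 of the 72 probe sets of AP-1 targets were lower in cKO and 0 higher (limma adjusted p under 0.05), where 0.411% of all probe sets were lower and 1.05% higher. Leaving out these arrays, which lay with the other genotype on the first component, favours separation of the groups: 657 of all probe sets passed without them against 210 with them, and of the targets 0 passed with all 8 arrays. The 6 probe sets were Krt6b at -1.46, Ptgs2 at -0.77 and -0.45, Itgb6, an integrin of migrating keratinocytes, at -0.75 and -0.68, and Plaur, the urokinase receptor, at -0.46. Their limma adjusted p ran from 0.00818 to 0.0404. Of other immediate early genes, 3 of 71 probe sets were lower, Tiparp at -0.49 and -0.42 and Gadd45a at -0.28, and 1 was higher, Ccn2 at 0.74. Of the upstream genes 1 of 90 was higher, Araf at 0.48, and none of the other 2 lists passed. Without WT 4 alone, Krt6b and Ptgs2 were lower (-1.43 and -0.72, limma adjusted p = 0.0152 and 0.0283). Itgb6, Plaur, Gadd45a and Araf were named after their values were seen.

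Markers of other cells that the preparation could hold gave no call: 0 of 120 probe sets in 9 lists passed by limma, and 7 had an unadjusted p under 0.05, beside 0.466% and 7.98% of all probe sets. Without cKO 2 and WT 4, Epcam (-0.34, limma adjusted p = 0.0426) of the Langerhans cell list and Lgr5 (0.42, adjusted p = 0.0414) of the hair follicle list passed, both named after their values were seen; their part in the members' values was not tested. Per array, list means for fibroblasts ran from 5.30 to 5.46 in cKO and 5.37 to 5.47 in WT, those for T cells from 5.46 to 5.51 and 5.42 to 5.51, and those for Langerhans cells and macrophages from 6.28 to 6.61 and 6.07 to 6.52. The mean over keratinocyte markers was 10.43 to 10.56 in cKO and 10.47 to 10.58 in WT. Arrays give no level of 0, and in such samples fewer cells of a type and less RNA per cell cannot be told apart.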

How the data were processed

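Per the labels' protocols, TRIzol was used for RNA, WTA2 for amplification (25 ng of RNA, 17 cycles), and 8 µg of cDNA were labelled with biotin. The authors deposited log2 values per probe set. Per the submitters' processing notes RMA was used; its version is not stated there, and base 2 was inferred from the range (3.06 to 13.0). Quantile normalisation, part of RMA, hides a shift common to all genes. Of 45141 rows, 104 controls were left out. The annotation pairs 28898 of the 45037 probe sets tested with 1 gene, 551 with several and 15588 with none; 28689 took current symbols from a mouse gene table (GRCm38.p6). Dim probe sets were kept.

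Groups were taken from the labels, which do not say whether replicates are separate animals; if they are not, p-values cover only spread among samples that may be technical. cKO was compared with WT by limma 3.58.1 (lmFit, eBayes, R 4.3.3) on all probe sets, with p-values adjusted by Benjamini-Hochberg (threshold 0.05, two-sided tests); single values were tested by exact permutation. Members, lists (292 of 325 entries measured) and the arrays set aside were chosen with earlier results of these data known. The genes named are the members, Ehmt2, up to 4 genes per list described (those past the threshold, otherwise by size of difference) and the 5 nearest patterns, beside the keratins and the genes said to be chosen later. In simulated comparisons of cKO with WT (20 runs, 45037 probe sets, 200 changed) 71.1% of changes of 0.5 (log2), 95.2% of 1.0 and 99.7% of 2.0 were recovered, and 5.12% of calls were false, with noise drawn independently per probe set. These shares are averages over probe sets of all levels and spreads. They were not computed for probe sets as variable as those of Fosl1 and Maff, and compression of high values was not simulated. No pair of arrays was a duplicate (smallest SD of a difference 0.131). Alternatives tried were a replicate block, a filter on dim probe sets, median centring, cyclic loess, other priors, array weights, 1 probe set per gene and leaving out arrays. Plots were drawn with matplotlib 3.10.9.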

Additional observations from a re-analysis of the deposited data

Results flagged for a closer look

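Of 106 groups of 4 arrays checked for an array far from the other 3, 14 had such an array, and among members 4 of 28. The cut-off flags about 1 in 20 of independent groups, but these groups are not independent. Besides the members they are list genes taken by size of difference in these data, with several probe sets of 1 gene. The share over all probe sets was not computed, so the counts cannot be compared with chance. The flagged groups of members come first. At Jun 1448694_PM_at cKO 4 read 10.29, below 10.51 to 10.55 in the other cKO arrays, and WT 1 read 10.79, above 10.51 to 10.54. At Jund 1440265_PM_at WT 4 read 7.11, above 6.87 to 6.90. At Maff WT 4 read 8.25, below 8.83 to 8.95.

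WT 4 was also the low array for Socs3 (8.67 against 9.48 to 9.56), for the 3 probe sets of Tiparp (9.17 against 9.79 to 9.85, 9.37 against 9.96 to 10.04, and 9.89 against 10.57 to 10.65), for Mapk8 at 1420932_PM_at (7.26 against 7.55 to 7.59) and 1440856_PM_at (7.20 against 7.52 to 7.59), and for Bag3 (7.53 against 8.00 to 8.09). At Nr4a3 1438796_PM_at cKO 4 read 8.00, below 8.77 to 8.90. At Creb5 1446380_PM_at WT 1 read 4.47, below 4.89 to 4.93. At Hspa1b 1452318_PM_a_at cKO 1 read 11.73, above 11.66 to 11.67.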

How the results depend on the processing

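The count of 0 members passing was the same in the 17 alternative fits, with the lowest limma adjusted p, 0.0709 for Fosl1, without both cKO 2 and WT 4. The replicate number as a block left the members at 0 (0 with an unadjusted p under 0.05). Deviations of same-numbered arrays correlated with 0.13, 0.22, -0.62 and 0.37. Of 4 cKO arrays, 2 were closest to the WT array of their own number. With the block, the residual SD fell from 0.109 to 0.0323 for Fosb and from 0.0828 to 0.0239 for Atf3. It fell less at 1417487_PM_at of Fosl1 (0.297 to 0.252) and rose at 1440265_PM_at of Jund (0.0910 to 0.101). Whether equal numbers mark paired samples cannot be told from so few arrays. Signs of small differences turned: Atf3 to -0.00928 (median centring), -0.00148 (cyclic loess) and -0.0304 (array weights), Fosb to -0.0203, Junb to -0.0160 and Jund to 0.0202 (array weights), and, without both cKO 2 and WT 4, Fosb to -0.0359, Fosl2 to -0.0124, Junb to -0.0870, Jund to 0.0414 and Atf3 to -0.0369. Leaving out single arrays moved Fosl1 from -0.26 to -0.00994 and from -0.22 to -0.00450 at its 2 probe sets, Jun at 1448694_PM_at from -0.14 to -0.0507, Fosb from -0.0208 to 0.0760, Fosl2 at 1437247_PM_at from -0.17 to 0.0216, Junb from -0.0429 to 0.0729, Jund from -0.0645 to 0.0155, Atf3 from -0.0284 to 0.0435 and Maff from -0.23 to 0.0237. The count over all probe sets, 210, was 132 in the upper 50% by mean, where fewer were tested, 758 with array weights, 657 without both arrays, and 104 to 356 without single arrays (104 without WT 1, 112 without WT 3, 131 without cKO 2, 108 without cKO 3, 356 without WT 4). Upstream genes went from 0 to 1 under median centring, cyclic loess, the prior with trend, array weights and without both arrays, and 0 to 1 without single arrays; AP-1 targets to 6 and other immediate early genes to 4 without both, and targets 0 to 2 without single arrays. Members in the upper 10% of residual SD went from 3 to 1 without both arrays. Of the relations of Fos by Pearson r, 3 passed, 5 with group means subtracted and 0 with the probe sets of largest SD, where r with Jund turned to -0.16. With group means subtracted, arrays were still permuted across groups, so those p-values are not exact. The count of 5 is therefore no firmer than the count of 3. The causes were not tested beyond what leaving out arrays shows.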
